A study of Mus musculus with 7 samples.

Results

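Non-collagen matrix proteins are the glycoproteins, proteoglycans, elastic fibre proteins and modifying enzymes that, with the collagens, make up the extracellular matrix. A list of 37 such genes was followed across all arrays of the series, and 34 of them had a probe set with a single gene symbol, of 18193 genes measured in this way. Fbn1, Loxl2 and Efemp2 are not analysed here. Each gene was read from its brightest such probe set over the 7 arrays, and levels are log2 values, so that 1 unit is a doubling.

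The arrays held RNA of cells sorted for Cd34 and Epcam from mouse skin tumours raised with the carcinogen DMBA and the growth promoter TPA. Benign papillomas gave 3 arrays and malignant carcinomas gave 4. In each tumour type 1 array carried the tag GFP in its title in place of a replicate number, which left carcinomas 1, 2 and 3 and papillomas 1 and 2 without the tag. What the tag stands for is not explained in the labels. The sample descriptions put the name Nr2f2 before the tumour type, and the sources used here give no strain, age, genotype or number of animals per array. All p-values therefore measure only the spread between these samples, which may be technical, and the small number of arrays limits their precision.

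In skin, fibroblasts make most of the interstitial matrix: fibronectin and collagen fibrils, the small proteoglycans that coat them, and elastic fibres built of elastin on a scaffold of microfibrils. Keratinocytes and vessels each rest on a basement membrane of laminins, nidogens and perlecan, to which endothelial cells contribute their own laminin chains. Matricellular proteins such as thrombospondins, tenascin-C and periostin carry signals more than load, and their genes are known to be active in wounds and in tumours.

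The tagged arrays stood apart from the others before any matrix gene was considered. All 15 endothelial markers (mean level 10.72 and 10.73 in carcinoma GFP and papilloma GFP, 5.42 to 5.87 in the untagged arrays) and 12 of 13 fibroblast markers (10.72 and 9.83, against 5.56 to 7.02) passed the test of tagged against untagged arrays and were higher. The fibroblast markers include the collagen genes Col1a1, Col1a2, Col3a1, Col6a1 and Col6a2, so they are not a measure of fibroblasts apart from matrix expression. Of 11 pericyte and smooth muscle markers 8 were higher (9.51 and 8.98, against 5.77 to 6.84), of 12 immune markers 5 (7.15 and 6.79, against 5.36 to 6.17), and 8 of 12 keratinocyte markers were lower (10.57 and 10.50, against 11.60 to 12.13). The few adipocyte, melanocyte and Schwann cell markers were higher in 1 of 4, 2 of 6 and 2 of 4 genes, and 1 Schwann cell marker was lower. Of all 18193 genes 11.9% passed as higher and 7.93% as lower. Krt5 stood at 12.98 and 12.91 in the tagged arrays and between 13.01 and 13.73 in the others, Krt14 at 12.72 and 13.13 against 13.53 to 14.24, and Krt15 at 8.94 and 9.28 against 9.49 to 11.45. Epcam, which the sort used, fell further, to 9.59 and 8.28 against 10.515 to 11.97, and Cdh1 to 8.76 and 8.86 against 10.78 to 11.61. All 12 keratinocyte markers had negative differences, from -2.73 to -0.37. The 3′ control probe set exceeded the 5′ one by 3.19 for Gapdh in both tagged arrays and by -0.04 to 0.06 in the others, and for Actb by 2.21 and 2.58 against 0.51 to 0.86. This gap grows as labelled RNA shortens. The part of cell types and of RNA length in the matrix results below was not tested.

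**Figure D1:**
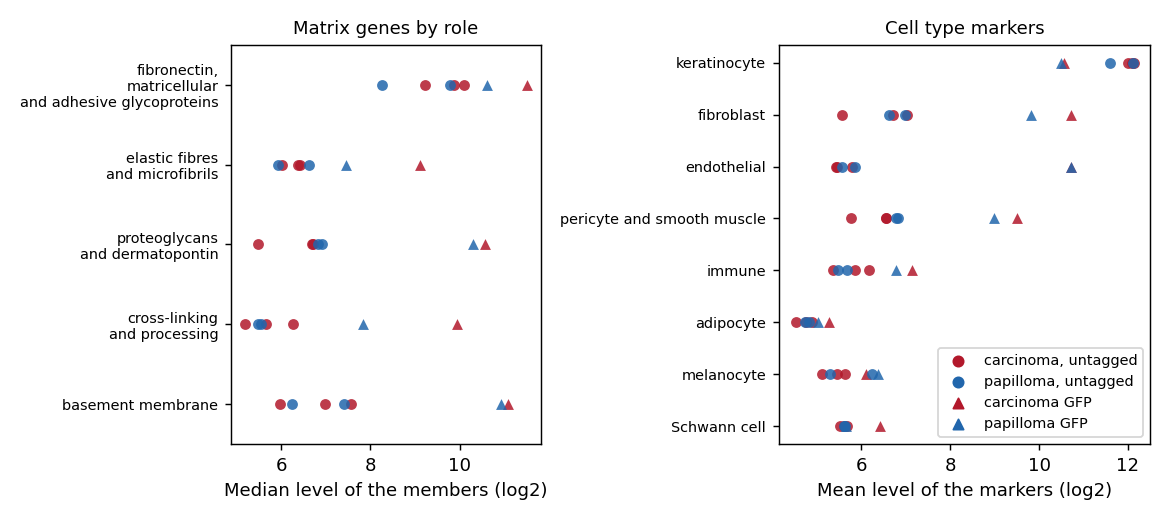
Median level of the matrix genes by role (left) and mean level of the cell type markers (right), in log2, with 1 symbol per array; circles are untagged arrays, triangles are GFP-tagged arrays, red is carcinoma and blue is papilloma. Endothelial markers stood at 10.72 and 10.73 in the tagged arrays and at most at 5.87 in the others, and each of the 5 roles had its highest medians in the tagged arrays.

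Most non-collagen matrix genes were far higher in the GFP-tagged arrays. Over the 34 genes the median difference, tagged minus untagged with tumour type in the fit, was 2.87 log2 units, where the median of all genes was -0.05. By limma with Benjamini-Hochberg adjustment over all genes and a threshold of 0.05, 21 of the 34 were higher and 1, Thbs1, was lower, and 12 did not pass. Of all 18193 genes 19.8% passed, 11.9% higher and 7.93% lower. Levels of 25 members did not overlap, with both tagged arrays above all 5 others, as in 21.0% of all genes, and 2 members lay below, as in 19.9% of all genes. A permutation test of 2 against 5 arrays cannot give a two-sided exact p under 0.0952. No single gene could pass 0.05 that way, so its p-values are not given. In bulk RNA a larger share of matrix-producing cells and more matrix RNA per cell cannot be told apart.

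**Figure D2:**
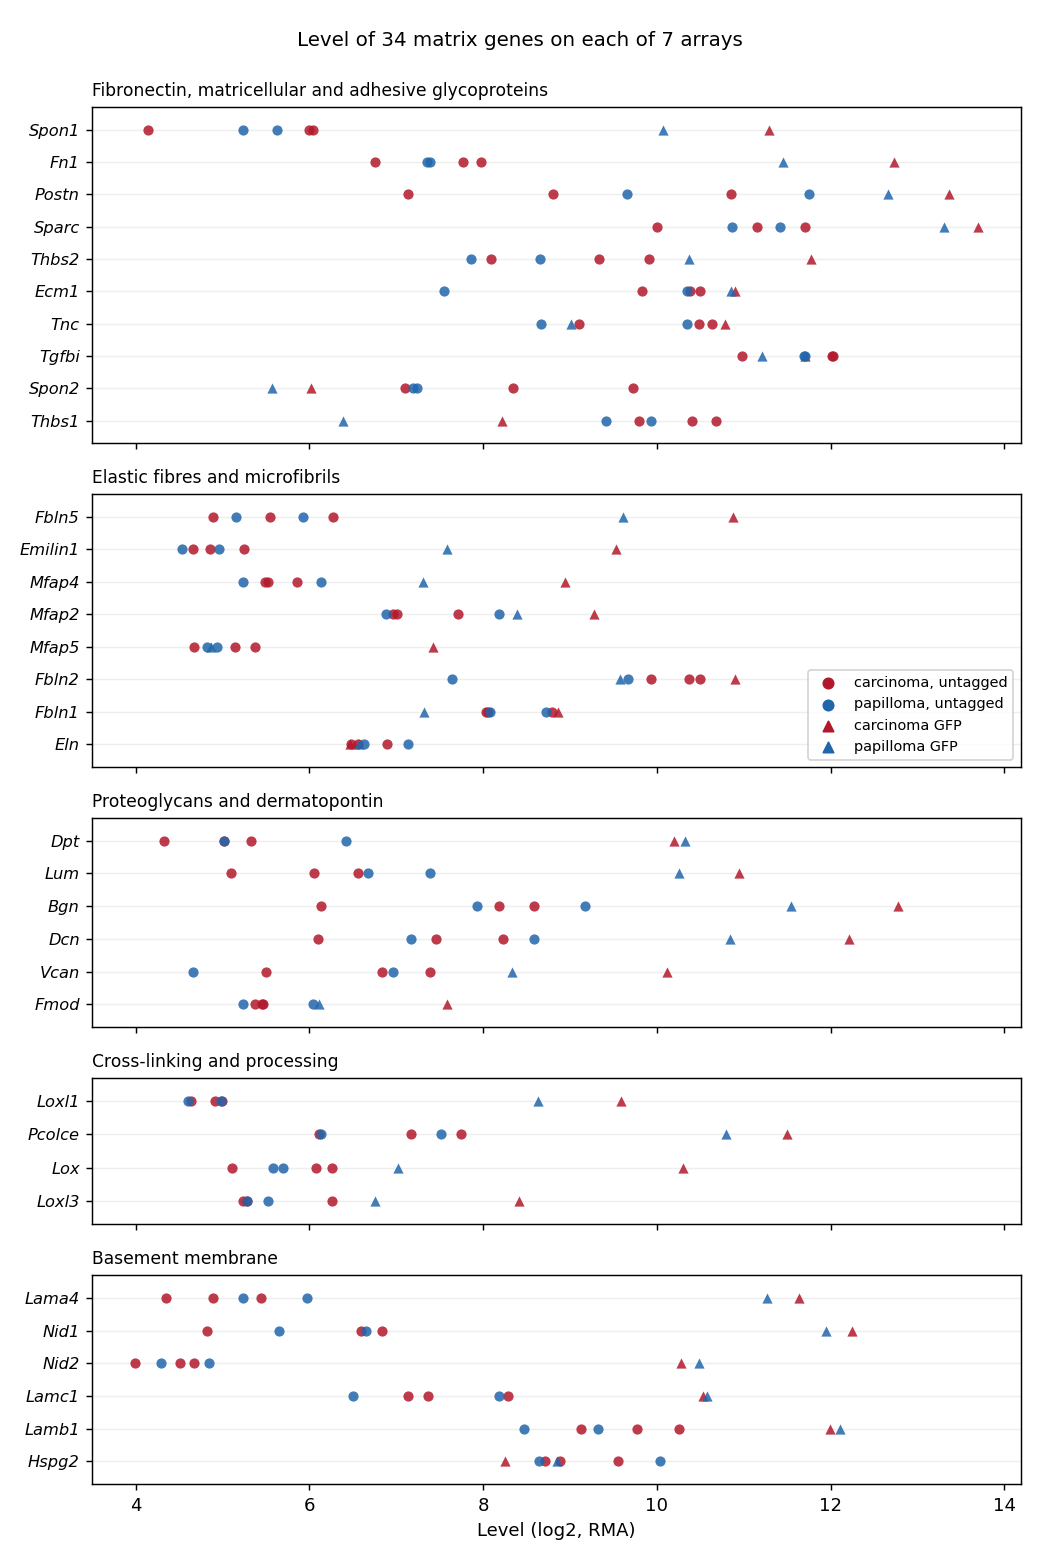
Level (log2) of each of the 34 matrix genes on each array, grouped by role and ordered by the difference between tagged and untagged arrays; circles are untagged arrays, triangles GFP-tagged arrays, red carcinoma and blue papilloma. Triangles lie to the right of all circles for 25 genes and to the left for Thbs1 and Spon2.

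Promoter sequences from the RefSeq table of build GRCm38.p6, 250 bases before to 50 after the start, were found for 19 of the 34 genes. Printed here are Nid1 and Dpt, which had the largest tag differences among the genes with a sequence, and Fbln2, the 1 gene whose carcinoma and papilloma levels did not overlap over all arrays. All run 5′ to 3′ on the gene's strand, and capitals mark a GC box (GGGCGG) or a TATA box (TATAAA), read on both strands.
Nid1, chr13:13437352-13437651, + strand: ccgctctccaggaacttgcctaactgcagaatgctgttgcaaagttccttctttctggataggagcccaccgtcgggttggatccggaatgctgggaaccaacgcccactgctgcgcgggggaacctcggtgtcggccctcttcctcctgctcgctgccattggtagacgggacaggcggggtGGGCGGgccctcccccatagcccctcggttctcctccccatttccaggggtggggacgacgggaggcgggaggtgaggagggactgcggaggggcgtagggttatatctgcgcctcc
Dpt, chr1:164796413-164796712, + strand: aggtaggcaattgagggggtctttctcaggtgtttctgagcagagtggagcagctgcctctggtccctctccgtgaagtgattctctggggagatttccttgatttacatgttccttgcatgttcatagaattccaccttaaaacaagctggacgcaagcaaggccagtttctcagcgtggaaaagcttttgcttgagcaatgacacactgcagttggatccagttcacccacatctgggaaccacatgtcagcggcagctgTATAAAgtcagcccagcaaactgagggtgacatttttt
Fbln2, chr6:91212514-91212813, + strand: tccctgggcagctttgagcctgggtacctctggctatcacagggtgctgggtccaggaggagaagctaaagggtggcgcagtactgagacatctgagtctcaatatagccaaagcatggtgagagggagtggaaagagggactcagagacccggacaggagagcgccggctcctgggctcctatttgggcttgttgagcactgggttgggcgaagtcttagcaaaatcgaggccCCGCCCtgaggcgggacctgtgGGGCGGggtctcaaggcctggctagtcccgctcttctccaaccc

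Across the 19 promoters 12 held a GC box, against 35.9% of all 27025 promoters of this length, and 4 held a TATA box (Dpt, Ecm1, Thbs2 and Tnc), against 14.2%. The AP-1 motif TGANTCA lay in 1 (Ecm1, 7.93% of all), the nuclear receptor half-site AGGTCA in 2 (Mfap2 and Postn, 16.0% of all) and the E-box CACGTG in 1 (Fbln1, 7.24% of all). These counts cover only the letters of these windows, on both strands and at any position before or after the start. No motif overlapped another in the 3 sequences shown.

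Among the adhesive and matricellular glycoproteins, 4 of 10 were higher in the tagged arrays and 1 was lower, with a median of 1.83. Fn1, fibronectin, stood at 7.98, 7.77 and 6.76 in carcinomas 1, 2 and 3, at 7.35 and 7.39 in papillomas 1 and 2, and at 12.74 and 11.46 in carcinoma GFP and papilloma GFP. The tagged mean was 12.10 ± 0.90 (SD, n = 2) and the untagged mean 7.45 ± 0.47 (SD, n = 5), a fitted difference of 4.69 (SE 0.40, limma adjusted p = 0.000525). Spon1, F-spondin, an adhesive protein first known from the developing nervous system, had 5.99, 6.05 and 4.15 in the untagged carcinomas, 5.63 and 5.23 in the untagged papillomas, and 11.29 and 10.07 in the tagged pair. Its difference was the largest of this role, 5.31 (SE 0.58, limma adjusted p = 0.00142), and the groups were far apart on every array.

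Sparc, a collagen-binding glycoprotein, was bright even without the tag, at 11.15 and 11.71 in carcinomas 1 and 2, 10.86 and 11.41 in papillomas 1 and 2 and lowest in carcinoma 3, and reached 13.70 and 13.31 with it (difference 2.48, SE 0.46, limma adjusted p = 0.0112). Thbs2, a thrombospondin made by mesenchymal cells, was higher by 2.40 (SE 0.50, limma adjusted p = 0.0173), from 7.86 to 9.91 in the untagged arrays to 11.77 and 10.38. Both calls ended when either tagged array was left out, with limma adjusted p = 0.175 and 0.0668 for Sparc and 0.220 and 0.0933 for Thbs2, without carcinoma GFP and without papilloma GFP.

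Thbs1, the thrombospondin that activates latent TGF-beta, ran the other way from its relative Thbs2. It stood at 10.68, 9.80 and 10.40 in the untagged carcinomas and 9.93 and 9.41 in the untagged papillomas, but dropped to 8.22 and 6.39 in the tagged carcinoma and papilloma. That was 7.31 ± 1.29 (SD, n = 2) against 10.04 ± 0.50 (SD, n = 5), a fitted difference of -2.64 (SE 0.36, limma adjusted p = 0.00369). A second probe set of Thbs1 gave a difference of means of -1.85. Spon2, a spondin with roles in innate immunity, also had its lowest values with the tag, 6.02 and 5.57, against 9.72, 7.11, 8.34, 7.20 and 7.24, but missed the threshold (difference -2.03, SE 0.63, limma adjusted p = 0.0683). Thbs1 and Spon2 were singled out after their values were seen.

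Tnc and Tgfbi did not pass. Tnc, tenascin-C of wounds and tumour stroma, had 10.63, 10.49 and 9.11 in the untagged carcinomas, 10.35 and 8.66 in the untagged papillomas, and 10.79 and 9.01 with the tag (difference 0.15, SE 0.61, limma adjusted p = 0.899). Tgfbi, an adhesion protein induced by TGF-beta, was bright on all arrays, at 10.97, 12.01 and 12.02, at 11.69 and 11.71, and at 11.71 and 11.21 in the same order (difference -0.21, SE 0.33, limma adjusted p = 0.714). Tagged and untagged levels overlapped for both genes.

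Postn and Ecm1 were the members of this role with the widest gaps between the untagged tumour types, and neither passed the threshold. Postn, periostin, an activator of matrix cross-linking, varied more than any other member among the untagged arrays, at 8.80, 10.86 and 7.14 in carcinomas 1, 2 and 3 and 9.65 and 11.76 in papillomas 1 and 2. It reached 13.36 and 12.66 with the tag (difference 3.27, SE 1.10, limma adjusted p = 0.0872), and passed with array weights (3.16, limma adjusted p = 0.0125) and without papilloma 2 (3.86, limma adjusted p = 0.0482). Ecm1, a secreted glycoprotein of skin that binds perlecan, had 9.83, 10.38, 10.49 and 10.35 on 4 untagged arrays and 7.55 in papilloma 2, and 10.90 and 10.85 with the tag (difference 1.25, SE 0.72, limma adjusted p = 0.292).

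Elastic fibre and microfibril genes were split: 3 of 8 passed, all higher, and the median was 1.36. Fbln5, a fibulin needed to assemble elastic fibres, stood at 5.55, 6.28 and 4.89 in carcinomas 1, 2 and 3, at 5.15 and 5.92 in papillomas 1 and 2, and at 10.87 and 9.61 in carcinoma GFP and papilloma GFP. The difference was 4.73 (SE 0.46, limma adjusted p = 0.000871), several times the spread within either group. Emilin1, a glycoprotein at the elastin-microfibril interface, had 5.24, 4.85, 4.66, 4.53 and 4.96 without the tag and 9.53 and 7.59 with it, a difference of 3.78 (SE 0.41, limma adjusted p = 0.00139). On its other probe set, the brighter one in the untagged arrays alone, the same fit gave 1.19 (limma adjusted p = 0.0525). This call therefore rested on the probe set. Mfap4, a microfibril-associated protein, lay between 5.23 and 6.13 without the tag and at 8.94 and 7.30 with it. It was higher by 2.52 (SE 0.42, limma adjusted p = 0.00784), and by 1.62 without carcinoma GFP (limma adjusted p = 0.113).

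Other members of this role sat close to 0 on their brightest probe set or were uneven within the tagged pair. Eln, elastin, stood at 6.48, 6.56, 6.89, 6.63 and 7.13 without the tag and at 6.47 and 6.57 with it on its brightest probe set (difference -0.24, SE 0.21, limma adjusted p = 0.501). A second probe set of almost the same brightness gave a difference of means of 1.88, with 8.39 and 7.62 in the tagged arrays, so the direction for Eln was not settled. Fbln1, another fibulin, had 8.05, 8.79 and 8.04 in the untagged carcinomas, 8.72 and 8.07 in the untagged papillomas, and 8.86 and 7.31 with the tag (difference -0.21, SE 0.43, limma adjusted p = 0.782). A second probe set of nearly the same brightness had 7.845 and 6.324 with the tag, below the untagged range of 7.947 to 8.850. The fit on that probe set gave -1.32 (limma adjusted p = 0.087), so the size of the Fbln1 difference rested on the probe set.

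Mfap2 and Mfap5 are small microfibril proteins. Mfap2 had 7.01, 6.96, 7.72, 6.89 and 8.18 without the tag and 9.27 and 8.39 with it (difference 1.48, SE 0.45, limma adjusted p = 0.0616). Mfap5 reached 7.42 in carcinoma GFP but 4.87 in papilloma GFP, inside the untagged range of 4.67 to 5.37 (difference 1.24, SE 0.51, limma adjusted p = 0.145), and without carcinoma GFP the difference was -0.01. Fbln2, a fibulin of basement membranes and elastic fibres, had 10.90 and 9.58 with the tag, which overlapped the untagged range of 7.64 to 10.50 (difference 0.76, SE 0.51, limma adjusted p = 0.359).

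All 6 proteoglycan and dermatopontin genes had positive differences, 5 of 6 passed, and the median was 4.08. Dpt, dermatopontin, a small matrix protein that binds decorin, stood at 5.02, 5.33 and 4.32 in carcinomas 1, 2 and 3, at 5.01 and 6.42 in papillomas 1 and 2, and at 10.20 and 10.33 in carcinoma GFP and papilloma GFP (difference 4.98, SE 0.45, limma adjusted p = 0.000670). The tagged arrays agreed within 0.13 units. Lum, lumican, which spaces collagen fibrils, had 6.05, 6.55, 5.09, 6.68 and 7.39 without the tag and 10.95 and 10.26 with it (difference 4.19, SE 0.53, limma adjusted p = 0.00273). Bgn, biglycan, had 8.59, 8.18, 6.13, 7.93 and 9.17 without the tag and 12.77 and 11.54 with it (difference 4.13, SE 0.80, limma adjusted p = 0.0134).

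Dcn, decorin, the close relative of biglycan, lay between 6.10 and 8.58 without the tag and at 12.21 and 10.85 with it (difference 4.02, SE 0.72, limma adjusted p = 0.00991). Vcan, versican, a large hyaluronan-binding proteoglycan, had 7.39, 6.83, 5.50, 6.96 and 4.66 without the tag and 10.11 and 8.34 with it (difference 3.06, SE 0.73, limma adjusted p = 0.0285). Fmod, fibromodulin, had 5.37, 5.46, 5.46, 5.24 and 6.04 without the tag and 7.59 and 6.11 with it, and missed the threshold on this probe set (difference 1.36, SE 0.40, limma adjusted p = 0.0577). Its 5 dimmer probe sets gave differences of means between 1.95 and 4.29, and averaging all 6 brought it past the threshold (2.51, limma adjusted p = 0.00574). Without carcinoma GFP the calls ended for Lum, Dcn, Bgn and Vcan (limma adjusted p = 0.0532, 0.175, 0.218 and 0.306), and for Vcan also without papilloma GFP (0.114) and without carcinoma 2 (0.0602).

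Every measured gene of cross-linking and processing was higher in the tagged arrays, 4 of 4, with a median of 3.64. Loxl1, the lysyl oxidase relative tied to elastic fibres, varied least of all members among the untagged arrays, at 4.997, 4.919, 4.636, 4.600 and 4.982, and stood at 9.59 and 8.63 with the tag (difference 4.32, SE 0.26, limma adjusted p = 0.000128). Its untagged levels were dim, below the median of all probe sets on each of those arrays (5.379 to 5.505), where a small spread says little of steady expression. Pcolce, which speeds the removal of procollagen end pieces, had 7.75, 7.17, 6.11, 7.52 and 6.14 without the tag and 11.50 and 10.80 with it (difference 4.25, SE 0.53, limma adjusted p = 0.00240). Lox, the founding lysyl oxidase, had 6.26, 6.07, 5.11, 5.70 and 5.59, and then 10.30 in carcinoma GFP but 7.02 in papilloma GFP (difference 3.02, SE 0.68, limma adjusted p = 0.0228). Loxl3 had 6.26, 5.24, 5.28, 5.28 and 5.52, and 8.42 and 6.76 with the tag (difference 2.13, SE 0.42, limma adjusted p = 0.0142). Without carcinoma GFP the calls of Pcolce, Lox and Loxl3 ended (limma adjusted p = 0.0587, 0.226 and 0.220) and the differences of Lox and Loxl3 shrank to 1.38 and 1.35. The call of Lox also ended without carcinoma 2 (0.0536).

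The 6 basement membrane members held the largest differences of the whole list, with 5 of 6 higher and a median of 4.49. This did not extend to the 12 other basement membrane genes measured, which had a median of 0.11 (-1.40 to 2.83). Lama4, the laminin chain typical of vessels, stood at 5.45, 4.89 and 4.35 in carcinomas 1, 2 and 3, at 5.24 and 5.97 in papillomas 1 and 2, and at 11.64 and 11.27 in carcinoma GFP and papilloma GFP (difference 6.23, SE 0.39, limma adjusted p = 0.000160). Nid1, a nidogen that links laminin to collagen IV, had 6.60, 6.84, 4.83, 6.66 and 5.66 without the tag and 12.24 and 11.94 with it (difference 5.98, SE 0.58, limma adjusted p = 0.000857). Nid2, its relative, lay between 3.99 and 4.84 without the tag, below the median of all probe sets on each of those arrays. It stood at 10.28 and 10.49 with the tag, which gave the smallest p of all members (difference 5.91, SE 0.25, limma adjusted p = 4.25e-05). For these 3 genes the tagged arrays lay within 0.37 units of each other.

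Lamb1 and Lamc1 are laminin chains that pair with Lama4 and with other alpha chains. Lamb1 had 10.25, 9.78, 9.13, 9.32 and 8.47 without the tag and 11.995 and 12.107 with it (difference 2.72, SE 0.40, limma adjusted p = 0.00463, and 0.0615 without papilloma GFP). Lamc1 lay between 6.51 and 8.28 without the tag and at 10.53 and 10.58 with it (difference 3.08, SE 0.50, limma adjusted p = 0.00690, and 0.0903 and 0.0751 without carcinoma GFP and without papilloma GFP). Hspg2, perlecan, the large heparan sulphate proteoglycan of basement membranes, was the exception, at 8.72, 8.89, 9.56, 8.64 and 10.03 without the tag and 8.26 and 8.85 with it (difference -0.65, SE 0.41, limma adjusted p = 0.332). Its other probe set gave a difference of means of 2.04, with 9.02 and 9.91 in the tagged arrays, so its direction was not settled either.

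**Figure D3:**
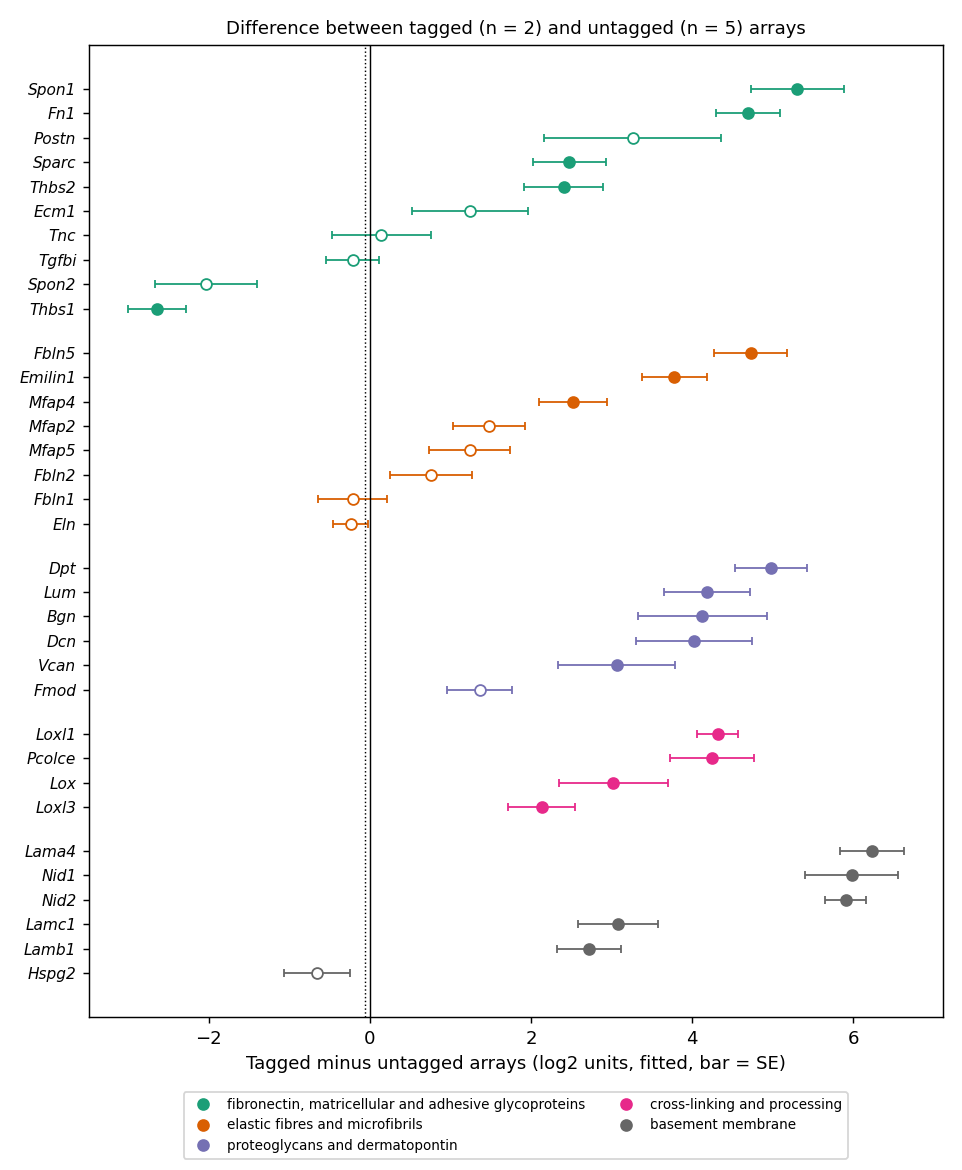
Fitted difference between the GFP-tagged (n = 2) and untagged (n = 5) arrays for each of the 34 genes, in log2 units, with bars for the standard error; filled circles passed the threshold of 0.05 after adjustment over all genes, open circles did not, and the dotted line is the median of all genes at -0.05. Lama4 stands highest at 6.23 and Thbs1 lowest at -2.64.

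Probe sets of the same gene did not always run together. The 34 genes had 83 probe sets in all and 27 genes had several, and in 7 of these (Dcn, Eln, Hspg2, Lox, Tgfbi, Tnc and Vcan) the tag differences of the probe sets had both signs. For Tgfbi the dimmest of 4 probe sets gave -1.46 while the others lay between -0.22 and 0.13. Tnc gave 0.05 on its bright probe set and -1.66 on its dim one. Averaging all probe sets of a gene shrank the difference by over 1.5 times in 9 of the 22 members called, all of which still passed. It went to 0.76 for Vcan (limma adjusted p = 0.0355), 1.87 for Dcn (0.0152), 1.38 for Lamb1 (0.0498), 2.54 for Fbln5 (0.00288) and 1.72 for Lox (0.0351), and to 3.12 for Spon1, 3.68 for Nid1, 2.49 for Emilin1 and 3.09 for Fn1. Thbs2 shrank less, to 2.01, but its call ended (limma adjusted p = 0.0663). In Dcn, Lox and Vcan the probe sets with opposite signs were dim, with differences of means between -0.27 and -0.03.

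Other matrix genes were listed by function. Of 65 measured, 29 were higher in the tagged arrays and 0 were lower, with a median of 0.86, against 11.9% and 7.93% of all genes. By list, the counts higher were 12 of 23 adhesive and matricellular genes, 6 of 11 elastic fibre and microfibril genes, 4 of 12 proteoglycans, 3 of 7 cross-linking and processing genes and 4 of 12 basement membrane genes. Their medians, in that order, were 1.67, 1.89, 0.41, 0.86 and 0.11. Tgm2, a transglutaminase that cross-links matrix proteins, was higher by 5.78 (SE 0.33, limma adjusted p = 0.000104), Mmrn1 and Mmrn2, multimerins, by 5.20 and 5.05, Ccn3, a matricellular regulator, by 4.99, and Npnt, a basement membrane ligand of integrins, by 4.76. Aspn and Ogn, small leucine-rich proteoglycans like decorin, were higher by 4.11 and 3.28, Lamb2, a laminin chain of vessels and muscle, by 2.83, Vwa1, a partner of perlecan, by 2.45, and Pxdn, a peroxidase that cross-links collagen IV, by 2.24.

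No member differed between carcinoma and papilloma past the threshold. With the tag in the fit, 24 of the 34 had a positive difference, carcinoma minus papilloma, and the median was 0.34 log2 units, where that of all genes was -0.01. Limma called 0 members and 0.0% of all genes, with the smallest adjusted p at 1. Of 18193 genes 331, Fbln2 and Thbs1 among them, had an unadjusted p under 0.05, itself a share under 0.05. Among the untagged arrays alone, 3 carcinomas against 2 papillomas, 17 members had a positive and 17 a negative difference, with a median of 0.002. Here too 0 members and 0.0% of all genes were called (smallest adjusted p 1). Of 18193 genes 308, Fbln2 among them, had an unadjusted p under 0.05, again a share under 0.05. By role the untagged medians were 0.35 for adhesive and matricellular, -0.01 for elastic fibre, -0.72 for proteoglycan, 0.18 for cross-linking and -0.12 for basement membrane genes.

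Fbln2 had the clearest separation of tumour types. It stood at 10.50, 10.37, 9.94 and 10.90 in carcinomas 1, 2, 3 and GFP and at 9.67, 7.64 and 9.58 in papillomas 1, 2 and GFP, so that every carcinoma array lay above every papilloma array, as in 0.506% of all genes. The difference with the tag in the fit was 1.53 (SE 0.46, limma adjusted p = 1). Fbln2 is described because its tumour types did not overlap, so no test of that separation is given. Papilloma 2 set much of its size: without that array the difference fell to 0.89, and in the untagged arrays it went from 1.61 (SE 0.60) to 0.60, while without papilloma 1 it was 2.63. Averaging both probe sets of Fbln2, the second of which is dim, gave 0.65.

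Among the untagged arrays Fbln2 was the 1 member with carcinoma above papilloma on all arrays, as in 3.47% of all genes, and Lum the 1 member with carcinoma below, as in 8.81% of all genes. Lum averaged 5.90 ± 0.74 (SD, n = 3) in untagged carcinomas and 7.03 ± 0.50 (SD, n = 2) in untagged papillomas (difference -1.13, SE 0.48, limma adjusted p = 1). In the tagged pair the order was the reverse, 10.95 in carcinoma GFP and 10.26 in papilloma GFP. The other members with untagged differences beyond 1 unit were Postn at -1.77 (SE 1.17), Ecm1 at 1.28 (SE 0.80) and Spon2 at 1.17 (SE 0.73), each with overlapping tumour types. Single arrays set the size of these values. Without papilloma 2 the difference was -0.72 for Postn and -0.12 for Ecm1, without carcinoma 3 it was -0.88 for Postn and -0.73 for Lum, and without carcinoma 1 it was 0.51 for Spon2. Without papilloma 1 it was -2.83 for Postn and 2.69 for Ecm1. The largest differences left in their roles were -0.91 for Bgn, -0.31 for Mfap2, 0.19 for Loxl3, 0.18 for Pcolce, 0.82 for Lamb1 and -0.71 for Lama4 (SE 0.81, 0.46, 0.37, 0.61, 0.42 and 0.40). Leaving out 1 array in turn gave -1.54 to -0.16 for Bgn, 0.40 to 1.25 for Lamb1 and -1.08 to -0.34 for Lama4, and Mfap2, Loxl3 and Pcolce changed sign. Of the other matrix genes 0 of 65 passed, and the untagged difference was largest for Npnt at -1.98 (SE 0.63), which rested on papilloma 2 at 7.04 against 4.89 in papilloma 1, and for Mgp, an inhibitor of calcification, at -1.64 (SE 0.65).

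Among the untagged arrays the highest and lowest values fell unevenly. Carcinoma 3 was the lowest of the 5 for 15 of the 34 genes (24.7% of all genes) and carcinoma 1 the highest for 14 (15.9% of all genes). Papilloma 2 was the highest for 11 and the lowest for 8, against 31.1% and 27.6% of all genes. These counts were not tested. For the proteoglycans, papilloma 2 was highest in 5 of 6 genes and carcinoma 3 lowest in 4 of 6. All 4 cross-linking genes were highest in carcinoma 1. The mean of the fibroblast markers was also lowest in carcinoma 3, at 5.56, against 6.63 to 7.02 in the other untagged arrays, and Vim, a mesenchymal filament protein, stood at 5.80 there and between 8.49 and 9.98 in the others. Pericyte and smooth muscle markers (5.77, against 6.55 to 6.84) and immune markers (5.36, against 5.48 to 6.17) were lowest in carcinoma 3 as well. The part of these cell types in the differences was not tested.

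Within the tagged pair carcinoma was above papilloma for most members outside the basement membrane. Carcinoma GFP exceeded papilloma GFP for 28 of 34 genes, with a median of 1.09 log2 units, where the median of all genes was 0.05. The excess was over 1 unit in 17 of 34 members and in 3.06% of all genes, and a deficit of over 1 unit occurred in 0 members and 0.627% of all genes. It reached 3.27 for Lox, 2.55 for Mfap5, 1.95 for Emilin1, 1.83 for Thbs1, 1.78 for Vcan and 1.77 for Tnc. By role, medians were 1.43 for elastic fibre genes (6 of 8 over 1 unit), 1.31 for cross-linking genes (2 of 4), 1.30 for proteoglycans (4 of 6) and 0.96 for adhesive and matricellular genes (5 of 10). The 6 basement membrane genes had a median of -0.08 and lay between -0.60 and 0.37, so none was beyond 1 unit.

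With 1 array of each type in the pair these are differences between 2 arrays with no replicate check. The fibroblast markers, some of them collagen genes, moved the same way, with a median of 0.94 between carcinoma GFP and papilloma GFP. The pericyte and smooth muscle markers did too, with 0.54, while endothelial markers had 0.09 and keratinocyte markers 0.02. Their part in the result was not tested. Whether the tumour difference in the tagged pair departed from that in the untagged arrays was put to the product of tag and tumour type. Each tagged type is 1 array, so the standard errors and p-values of this fit come wholly from the spread of the untagged arrays and say nothing of the spread among tagged ones. The median over the members was 1.12, where that of all genes was 0.08, and limma called 0 members and 0.0% of all genes (smallest adjusted p 1). An unadjusted p under 0.05 was found for 389 genes, of which 6 were members: Lox (3.10, SE 0.70), Mfap5 (2.37, SE 0.49), Emilin1 (1.77, SE 0.50), Mfap4 (1.69, SE 0.60), Fmod (1.69, SE 0.53) and Fbln1 (1.65, SE 0.63).

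**Figure D4:**
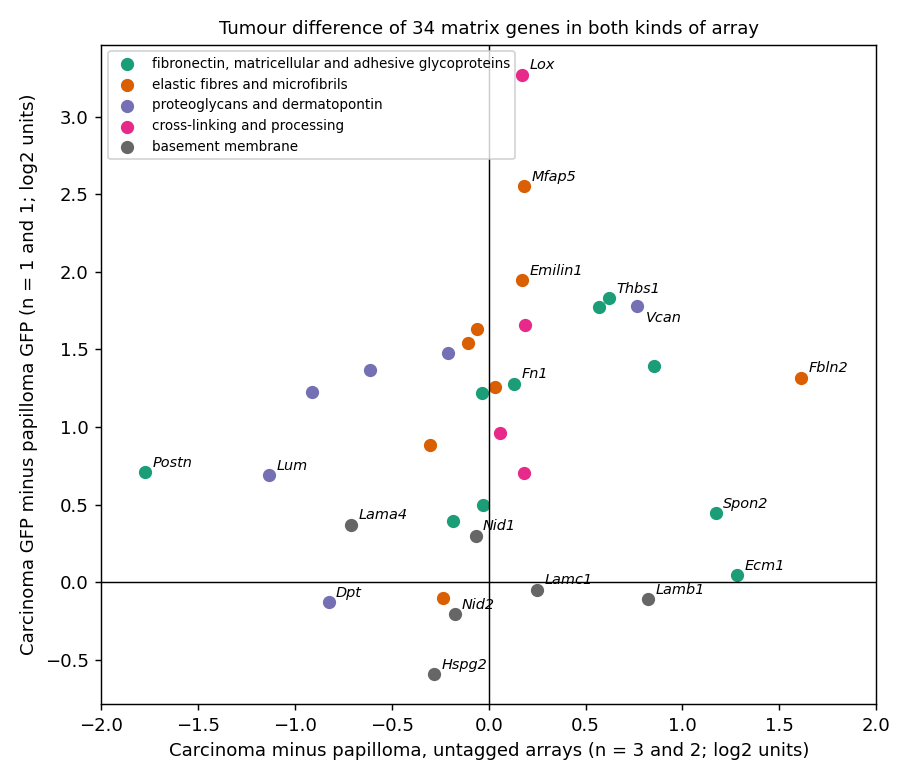
Carcinoma minus papilloma for each of the 34 matrix genes, in log2 units, among the untagged arrays (x axis, 3 against 2 arrays) and within the GFP-tagged pair (y axis, 1 against 1 array), coloured by role. Basement membrane genes lie between -0.60 and 0.37 on the y axis, while Lox stands at 3.27 and Fbln2 is the point farthest to the right at 1.61.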

How the data were processed

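Total RNA from sorted tumour cells was amplified, biotin-labelled and hybridised to a Mouse Genome 430pm strip Affymetrix array, and the submitters' processing notes list affy and RMA as tools. Tool versions, probe set definitions and the set of arrays normalized jointly were not stated in these sources. The values deposited by the authors run from 2.72 to 14.51 and were taken as log2, from their range. Names came from a platform annotation of 2016, updated through gene identifiers with the RefSeq table of GRCm38.p6. Of 45101 probe sets, 34945 had 1 symbol, 932 had several, 64 were controls and 9160 were unnamed here. The brightest single-symbol probe set over 7 arrays stood for each gene, and no dim genes were removed.

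Tagged and untagged arrays and both tumour types were compared in 1 fit of limma 3.58.1 (R 4.3.3, lmFit and eBayes), with separate fits for the untagged arrays and for the product of tag and tumour type, and p-values were adjusted by Benjamini-Hochberg over 18193 genes. The procedure was tested on simulated arrays. No arrays held identical values. Members, lists and tests were chosen with earlier results of these data known. Values of every array were given, per role, for the 2 members with the largest and the 2 with the smallest tag difference and the 2 with the largest untagged tumour difference. Thbs1 and Spon2 are also given in full, and Sparc, Thbs2, Mfap4, Mfap5, Dcn, Nid2 and Lamc1 by values or ranges, outside this rule.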

Additional observations from a re-analysis of the deposited data

Results flagged for a closer look

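A sample was set apart where its gap to the nearest other array, over the range of its group, exceeded Dixon's 95% critical value, which chance passes in about 1 of 20 groups. The groups were the 4 carcinoma arrays and the 5 untagged arrays, for each of 34 genes. Carcinoma GFP is the 1 tagged array among the carcinomas, so its gaps restate the tag difference and depend on how close the other 3 lie. It was set apart from the other carcinoma arrays for 6 of 34 genes, as for 6.43% of all genes: Lama4 at 11.64 (others at most 5.45), Nid2 at 10.28 (at most 4.67), Loxl1 at 9.59 (others 4.64 to 4.997), Emilin1 at 9.53 (at most 5.24), Mfap4 at 8.94 (at most 5.86) and Fmod at 7.59 (at most 5.46). Among the untagged arrays papilloma 2 was set apart for 2 genes, as for 3.84% of all genes: it was low for Ecm1, at 7.55 against 9.83 to 10.49, and high for Fmod, at 6.04 against 5.24 to 5.46. Carcinoma 1, set apart for 1.06% of all genes, was high for Loxl3, at 6.26 against 5.24 to 5.52.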

How the results depend on the processing

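In the comparison of tagged with untagged arrays, leaving out 1 array at a time gave 861 to 3955 genes past the threshold in place of 3601, 10 to 24 members higher, 1 or 2 lower and a median over the members of 2.14 to 3.13. The low ends came without carcinoma GFP, and without papilloma GFP 1462 genes passed; in both cases the lone tagged array is assumed to vary like the others. Of the 22 members called, 10 stayed called without either tagged array in turn, 11 lost the call without carcinoma GFP and 5 without papilloma GFP, and 9 were called in every alternative that could be run for them. Array weights raised the count of genes to 6819. A second member was lower, Spon2, with dim genes left out, with a trended robust prior, with arrays centred on the 75th percentile and with array weights (2 in each). Averaging all probe sets of a gene gave a median of 2.07 and turned Eln to 0.83 (limma adjusted p = 0.0358), where probe sets differ. For carcinoma against papilloma 0 genes were called under each alternative except the mean of all probe sets, which called 1 gene, Xist (named after its value was seen), and 0 members; the members' sign changed in 30 of 238 leave-one-out values and 28 of 332 others, none of them called. In the untagged arrays alone it changed in 35 of 170 leave-one-out values and 12 of 264 others, and the members' median ran from -0.13 to 0.30 when 1 array was left out. Some settings in these counts repeat each other. With the tag in the fit, leaving out either tagged array gave the same differences as the untagged arrays alone. The replicate block gave those found without carcinoma 3. Replicate labels 1 and 2 occur in both tumour types, and the numbers were not treated as pairs. Deviations of the untagged arrays from their group means correlated across genes at 0.10 for number 1 and -0.30 for number 2. With 2 untagged papillomas, each carcinoma has the same correlation with both, of opposite sign. These correlations therefore cannot show whether equal numbers are pairs. With the replicate block carcinoma 3 has no partner and adds nothing to the difference. The members' median was then 0.50 (0.30 in the untagged arrays), the same as without carcinoma 3, and 0 genes were called.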
